A study of Mus musculus with 6 samples.

Results

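The 10 genes described here are markers of the muscular and supporting cells of blood vessel walls, smooth muscle cells and pericytes: Acta2, Actg2, Myh11, Smtn, Tagln, Cnn1, Des, Rgs5, Cspg4 and Notch3. They were taken by name from a table of 19928 genes measured in mouse adipose tissue, and all 10 were found in it. The question was how their RNA levels compared between 3 samples from mice whose feed held radix Angelica sinensis (RAS), a root drug of Chinese medicine, and 3 control samples.

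Smooth muscle cells ring arteries, veins and the walls of hollow organs, and shorten when myosin pulls on actin filaments. Pericytes sit singly on capillaries, share part of this gene programme and steady the vessel; in fat, cells of the vessel wall have also been described as a source of fat cell progenitors. Many contractile genes are switched on by serum response factor (SRF) with partners of the myocardin family, which acts at a promoter element called the CArG box. Signals through the receptor Notch3 and the growth factor TGF-beta also maintain the mural, or vessel wall, state.

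All 6 samples were adipose tissue of KM mice, an outbred strain, measured by poly(A) RNA-seq. The RAS group received 10.00 g RAS per kg body weight, and the other group carries the diet label control. A high-fat diet is named in the title of the series and not in the label of either group. The sources used here do not give the depot, sex, age or number of animals per sample, so the p-values reflect the spread of these samples alone, which may be technical. Libraries held 14379625.0 to 15748690.0 assigned reads, estimated from a scaled count, and 12462 to 12641 genes at 1 FPKM or more. FPKM gives fragments scaled for transcript length and for sequencing depth. RAS 3 stood at -34.53 and control 1 at 24.45 on the first principal component, with the other libraries between -1.20 and 8.36, and some results moved when they were left out. Gene positions are those of the deposited table, counted from 1. In bulk tissue, fewer mural cells and less RNA per mural cell cannot be told apart.

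Promoter windows, from 250 bases before to 50 bases after the start of the gene, were present in the RefSeq table (GRCm38.p6) for 7 of the 10 genes; Actg2, Myh11 and Tagln had no entry. The window of Acta2 is shown because this smooth muscle actin had the smallest p of the markers and was the 1 gene of the 7 with CArG-like elements. Capitals mark CArG boxes in which 1 of the 6 inner bases may be C or G; that looser form was searched after no exact CArG box was found in any of the 7 windows. Cnn1 is shown as a contractile gene with a wide range over the libraries, and Rgs5 as a pericyte gene; neither holds a capital.
Acta2 (GRCm38.p6, chr19:34255324-34255623, minus strand): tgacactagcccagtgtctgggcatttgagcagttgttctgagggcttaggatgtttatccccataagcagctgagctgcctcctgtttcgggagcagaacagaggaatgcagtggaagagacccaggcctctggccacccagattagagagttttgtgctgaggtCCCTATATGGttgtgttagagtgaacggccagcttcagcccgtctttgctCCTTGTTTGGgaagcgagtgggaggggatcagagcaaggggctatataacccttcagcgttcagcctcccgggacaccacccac
Cnn1 (GRCm38.p6, chr9:22099003-22099302, plus strand): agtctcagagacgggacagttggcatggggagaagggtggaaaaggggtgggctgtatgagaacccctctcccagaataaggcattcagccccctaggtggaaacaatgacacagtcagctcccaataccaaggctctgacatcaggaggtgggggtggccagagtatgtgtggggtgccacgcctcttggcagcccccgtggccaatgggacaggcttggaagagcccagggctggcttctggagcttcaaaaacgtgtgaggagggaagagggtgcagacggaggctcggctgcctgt
Rgs5 (GRCm38.p6, chr1:169655251-169655550, plus strand): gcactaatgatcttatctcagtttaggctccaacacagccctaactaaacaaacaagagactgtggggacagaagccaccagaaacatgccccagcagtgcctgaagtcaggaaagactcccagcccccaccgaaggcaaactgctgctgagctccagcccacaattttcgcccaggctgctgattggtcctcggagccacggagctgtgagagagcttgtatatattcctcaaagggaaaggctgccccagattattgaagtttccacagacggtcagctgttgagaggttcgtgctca

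The 2 elements of Acta2, CCCTATATGG and CCTTGTTTGG, begin 84 and 34 bases upstream of the start. The pattern searched is its own reverse complement, so each match counts on both strands, although the letters of the 2 elements differ between strands. Exact CArG boxes were present in 1.63% of 32851 RefSeq promoter windows, and the looser form in 9.98%. The core motif of RBPJ, the DNA-binding partner of Notch receptors (TGGGAA, both strands), was found in Acta2 and in Smtn and in 25.6% of all windows. In Acta2 it begins 27 bases upstream and overlaps the second CArG-like element. A match describes letters in the window and is not evidence of binding.

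The group means of 9 of the 10 markers were lower in RAS fat and that of Cspg4 was higher, but no marker passed the test. Differences are on the log2(FPKM + 1) scale, RAS minus control, from limma's moderated test over 12606 genes with a mean of at least 1 FPKM, with Benjamini-Hochberg adjustment over all of them and a threshold of 0.05. All 10 markers entered the test. The adjusted p-values of the markers lay between 0.414 and 0.846, and 0 of 10 passed, against 0.0% of all genes tested, where the smallest adjusted p was 0.138. At an unadjusted p under 0.05 stood 1 of the 10, Acta2, on the lower side, where 6.41% of all genes tested were found. A negative difference was found for 57.0% of all genes tested. The median difference was -0.55 for the 10 markers (-0.33 without RAS 3) and -0.04 for all genes tested.

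**Figure D1:**
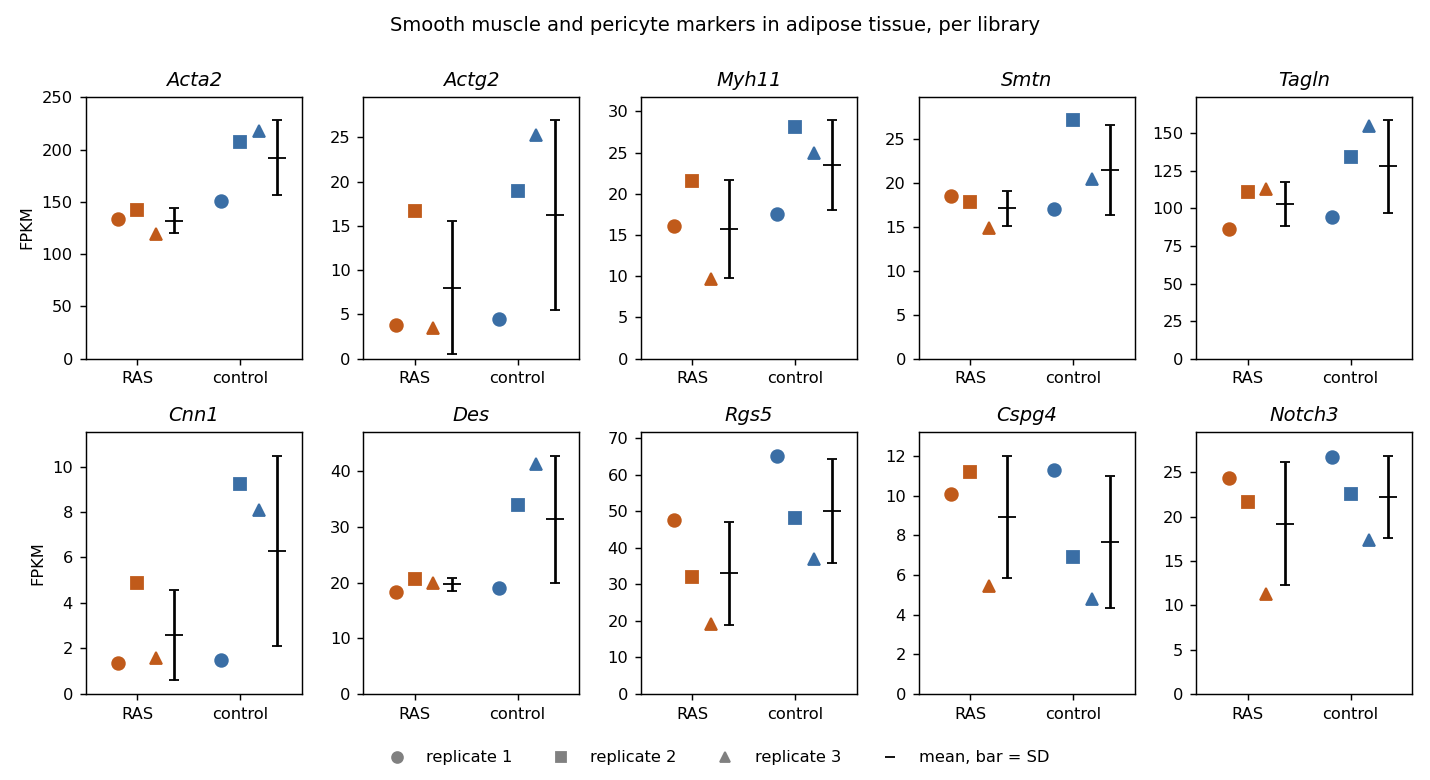
FPKM of each marker (y axis, linear from 0) in the 3 RAS and the 3 control libraries (x axis); symbols give the replicate number, and the black bar the mean and SD of each group. Acta2 is the panel in which the groups do not overlap, with RAS at 119 to 142 and control at 151 to 218 FPKM.

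**Figure D2:**
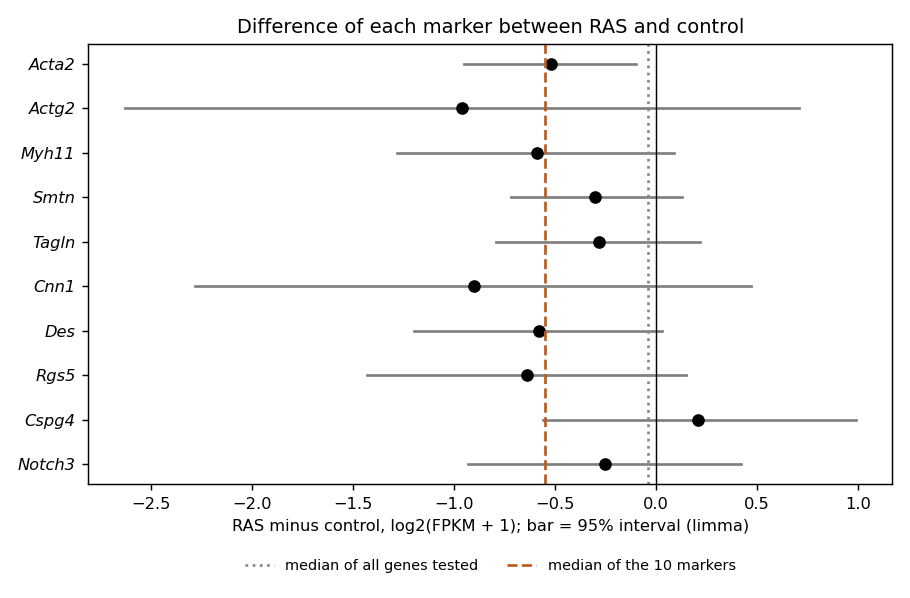
Log2(FPKM + 1) difference, RAS minus control (x axis), of each marker (y axis) with its 95% interval from limma; dashed and dotted lines mark the medians of the 10 markers (-0.55) and of all genes tested (-0.04). The interval of Acta2 lies below 0, and the other 9 include 0.

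Levels differed widely among the markers, and FPKM allows genes to be compared per length. Acta2 had the highest mean over the 6 libraries, 162 FPKM, which ranked 410th of the genes tested, and Tagln followed with 115 FPKM. Both kept their places in 6 of 6 libraries. Rgs5 averaged 41.5, Des 25.5, Notch3 20.7, Myh11 19.6, Smtn 19.3, Actg2 12.1, Cspg4 8.29 and Cnn1 4.44 FPKM. From Rgs5 down, neighbours in this order changed places in at least 1 library, and for Des and Notch3, as for Actg2 and Cspg4, the first was above the second in 3 of 6. The place of Rgs5 is that of its own entry alone. LOC100862094, on the same locus, averaged 55.2 FPKM in RAS and 80.0 FPKM in control, and reads may be split between both entries.

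Acta2 encodes smooth muscle alpha-actin, the thin-filament protein most used to mark vascular smooth muscle (NCBI gene 11475; chromosome 19, 34241091 to 34255336). It had 134, 142 and 119 FPKM in RAS 1, 2 and 3, against 151, 207 and 218 FPKM in control 1, 2 and 3. Every RAS library was below every control library, as for 12.5% of all genes tested, and control 1 lay nearest to the RAS libraries. Means were 132 ± 11.8 FPKM in RAS and 192 ± 35.9 FPKM in control (SD, n = 3 each), a ratio of 0.688. The log2 difference was -0.52 ± 0.18 (SE; 95% interval -0.95 to -0.10; limma unadjusted p = 0.0222, adjusted p = 0.414). Each value rested on 3251 to 6558 reads, the deepest coverage of the 10.

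Actg2 encodes smooth muscle gamma-actin, the form known from the gut and other hollow organs (NCBI gene 11468; chromosome 6, 83512909 to 83536251). It had 3.84, 16.7 and 3.49 FPKM in RAS 1, 2 and 3, against 4.43, 18.9 and 25.3 FPKM in control 1, 2 and 3. The libraries fell into a low and a high set that cut across the groups: RAS 1, RAS 3 and control 1 were low, and RAS 2, control 2 and control 3 were high. A log2 difference of -0.96 ± 0.71 was estimated (SE; 95% interval -2.63 to 0.71; limma adjusted p = 0.672). Single libraries moved it, to -1.65 without control 1, -1.60 without RAS 2, -0.61 without RAS 3 and -0.51 without control 3. Relative to Acta2, Actg2 stood at 2.86, 11.8 and 2.94% in RAS 1, 2 and 3 and at 2.94, 9.13 and 11.6% in control 1, 2 and 3. The actin genes are close paralogues, so reads that match more than 1 of them may be shared in ways the sources used here do not state.

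Myh11 encodes the smooth muscle myosin heavy chain of the thick filament (NCBI gene 17880; chromosome 16, 14194527 to 14291408; 1333 to 4737 reads). It had 16.1, 21.5 and 9.62 FPKM in RAS 1, 2 and 3, against 17.5, 28.1 and 24.9 FPKM in control 1, 2 and 3. RAS 2 lay above control 1, so the groups overlapped, and RAS 3 was the lowest library. The log2 difference was -0.59 ± 0.29 (SE; limma adjusted p = 0.536), and without RAS 3 it was -0.30. Smtn encodes smoothelin, an actin-associated protein of contractile smooth muscle (NCBI gene 29856; chromosome 11, 3517522 to 3539292; 751 to 1702 reads). It had 18.5, 17.8 and 14.8 FPKM in RAS 1, 2 and 3, against 17.0, 27.1 and 20.4 FPKM in control 1, 2 and 3. Control 1 lay below RAS 1 and RAS 2, and the log2 difference came to -0.30 ± 0.18 (SE; limma adjusted p = 0.612), with -0.45 without control 1 and -0.13 without control 2.

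Tagln encodes transgelin, or SM22, an actin-binding protein of smooth muscle (NCBI gene 21345; chromosome 9, 45863691 to 45936058; 2078 to 4049 reads). It had 86.3, 111 and 113 FPKM in RAS 1, 2 and 3, against 94.2, 134 and 155 FPKM in control 1, 2 and 3. The groups overlapped through control 1, and the log2 difference was -0.28 ± 0.21 (SE; limma adjusted p = 0.678). It was -0.48 without control 1, -0.16 without RAS 1, -0.13 without control 3 and -0.55 without RAS 3 and control 1. The position given is a locus that the table lists for Tagln, Pcsk7 and Rnf214 together, and not that of Tagln alone. Pcsk7 and Rnf214 averaged 8.93 and 6.33 FPKM in RAS and 11.2 and 7.74 FPKM in control. Reads of overlapping genes may be mixed because no strand step is named. Cnn1 encodes calponin 1, which binds actin and restrains the myosin motor (NCBI gene 12797; chromosome 9, 22099253 to 22109221; 48 to 381 reads). It had 1.36, 4.86 and 1.56 FPKM in RAS 1, 2 and 3, against 1.49, 9.24 and 8.11 FPKM in control 1, 2 and 3. These are the same low and high libraries as for Actg2. The highest library was 6.80 times the lowest for Cnn1 and 7.24 times for Actg2, against 1.79 to 3.39 times for the other 8 markers. For Cnn1 the log2 difference was -0.90 ± 0.59 (SE; 95% interval -2.28 to 0.47; limma adjusted p = 0.629). It was -1.56 without control 1 and -0.54 without control 2.

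Des encodes desmin, the intermediate filament of muscle cells and of many pericytes (NCBI gene 13346; chromosome 1, 75360344 to 75367716; 577 to 1320 reads). It had 18.4, 20.7 and 20.0 FPKM in RAS 1, 2 and 3, against 19.0, 33.9 and 41.4 FPKM in control 1, 2 and 3. The RAS libraries lay close together and control 1 lay among them. The log2 difference was -0.58 ± 0.26 (SE; 95% interval -1.20 to 0.03; limma adjusted p = 0.501), while it was -0.90 without control 1 (adjusted p = 0.166) and -0.35 without control 3. Desmin is also a protein of skeletal muscle.

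Rgs5 encodes a GTPase activator that damps signals of G protein-coupled receptors and is a standard pericyte marker (NCBI gene 19737; chromosome 1, 169655501 to 169694242; 607 to 1919 reads). It had 47.7, 32.0 and 19.2 FPKM in RAS 1, 2 and 3, against 65.2, 48.1 and 37.0 FPKM in control 1, 2 and 3. RAS 1 lay above control 3, so the groups overlapped. The log2 difference was -0.64 ± 0.34 (SE; 95% interval -1.43 to 0.15; limma adjusted p = 0.562), and it was -0.31 without RAS 3 and -0.11 without RAS 3 and control 1 together. The table holds LOC100862094 on the same locus, at 55.2 ± 17.9 FPKM in RAS and 80.0 ± 22.6 FPKM in control (SD, n = 3 each), so the reads of Rgs5 may be split between both entries.

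Cspg4 encodes the surface proteoglycan NG2, used to mark pericytes and also carried by glial progenitors (NCBI gene 121021; chromosome 9, 56865104 to 56899870; 606 to 1441 reads). It had 10.1, 11.2 and 5.44 FPKM in RAS 1, 2 and 3, against 11.3, 6.89 and 4.80 FPKM in control 1, 2 and 3. The 2 groups covered much the same range, and the estimated difference was 0.21 ± 0.33 on the log2 scale (SE; 95% interval -0.56 to 0.99; limma adjusted p = 0.846). It ran from -0.04 without control 3 to 0.50 without RAS 3 or control 1. Notch3 is the Notch receptor of arterial smooth muscle and pericytes (NCBI gene 18131; chromosome 17, 32113417 to 32166852; 1141 to 2875 reads). The table lists the same position for Gm17276, which averaged 0.0366 FPKM in RAS and 0.0966 FPKM in control. For Notch3 the values were as follows. Notch3 had 24.4, 21.7 and 11.3 FPKM in RAS 1, 2 and 3, against 26.7, 22.5 and 17.4 FPKM in control 1, 2 and 3. RAS 3 was the lowest library, and the difference of -0.25 ± 0.29 (SE; limma adjusted p = 0.784) became 0.07 without it; leaving out another single library gave -0.46 (RAS 1) to -0.12 (control 1).

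The contractile genes and the pericyte genes put the libraries in different orders. Averaged over the 7 contractile and filament genes, the log2 value centred on each gene's mean was -0.46, 0.13 and -0.56 in RAS 1, 2 and 3, against -0.38, 0.62 and 0.65 in control 1, 2 and 3. For Rgs5, Cspg4 and Notch3 it was 0.30, 0.10 and -0.74 in RAS 1, 2 and 3, against 0.53, 0.10 and -0.29 in control 1, 2 and 3. Control 1 was thus among the low libraries for the first set and the highest for the second. The ratio of Rgs5 to Des FPKM shows the same contrast, at 2.60, 1.55 and 0.962 in RAS 1, 2 and 3 and 3.44, 1.42 and 0.895 in control 1, 2 and 3. Of the 10 markers, 6 were lowest in RAS 3 and 3 in RAS 1, while each was highest in a control library. The same shares over all genes tested were not computed, so these counts do not set the markers apart from other genes. This grouping by role was described after the values were seen and carries no test.

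**Figure D3:**
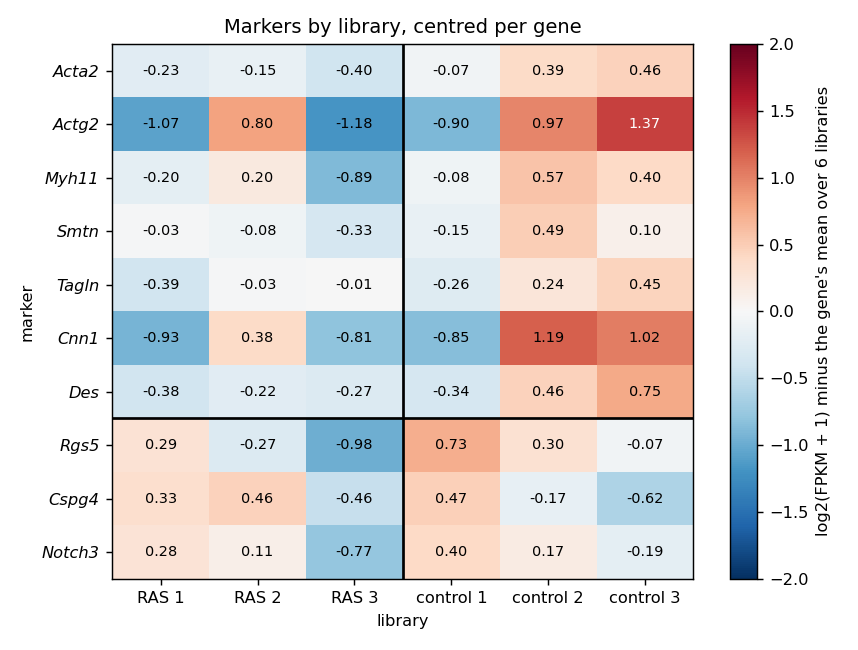
Log2(FPKM + 1) of each marker (rows) in each library (columns), minus the gene's mean over the 6 libraries; red is above and blue below that mean, and the lines part contractile from pericyte genes and RAS from control. Control 1 is below the mean for the 7 upper genes (-0.90 to -0.07) and above it for the 3 lower ones (0.40 to 0.73).

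Other contractile and cytoskeletal genes of smooth muscle mostly had lower means in RAS as well. Of 18 listed genes 15 could be tested, 13 with a negative and 2 with a positive difference, against 57.0% negative of all genes tested. The median of the 15 was -0.32, and it ran from -0.22 without control 3 to -0.44 without RAS 3 and control 1. None of the 15 passed the adjusted threshold. At an unadjusted p under 0.05, 4 were lower and 0 higher, where all genes tested gave 6.41% lower and 3.86% higher. Mylk, the kinase that starts contraction by phosphorylating myosin light chain, had 13.5, 13.3 and 10.4 FPKM in RAS 1, 2 and 3, against 18.9, 21.9 and 18.5 FPKM in control 1, 2 and 3. All RAS libraries lay below all controls, control 1 included (log2 -0.64 ± 0.14 SE; limma adjusted p = 0.261). Cnn2, a calponin found in many cell types, averaged 31.7 ± 5.76 FPKM in RAS and 46.3 ± 5.13 FPKM in control (SD, n = 3 each; log2 -0.54). Pgm5, an adhesion protein of muscle, averaged 2.20 ± 0.693 FPKM in RAS and 4.64 ± 1.44 FPKM in control (log2 -0.80). Ppp1r12b, a subunit of myosin phosphatase, stood at 1.83 ± 0.689 FPKM in RAS and 2.94 ± 0.434 FPKM in control (log2 -0.51).

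Srf, the factor that binds the CArG box, had 8.37, 8.34 and 10.7 FPKM in RAS 1, 2 and 3, against 19.0, 18.8 and 15.2 FPKM in control 1, 2 and 3. The groups did not overlap, and the ratio of means was 0.518 (log2 -0.88 ± 0.14 SE; 95% interval -1.21 to -0.55; limma adjusted p = 0.197). Unlike Actg2 and Cnn1, Srf was at its highest in control 1. Its list of SRF, myocardin family and TGF-beta genes held 14 lower and 2 higher of 16 tested, against 57.0% lower of all genes tested. The median was -0.18, and none of the 16 was past the adjusted threshold. With 1 library left out, the median ran from -0.28 without control 1 to -0.16 without RAS 3. The count of lower genes then ran from 11 without RAS 2 to 15 without RAS 1 or RAS 3. At an unadjusted p under 0.05 stood 3 lower genes and 1 higher one of the 16, against 6.41% lower and 3.86% higher of all genes tested. Vcl, vinculin of actin-anchoring adhesions, averaged 48.3 ± 6.30 FPKM in RAS and 72.7 ± 5.74 FPKM in control (log2 -0.59; limma adjusted p = 0.283). Tgfbr1, a TGF-beta receptor, averaged 6.33 ± 0.769 FPKM in RAS and 8.35 ± 0.559 FPKM in control (log2 -0.35). Klf4, a factor that opposes contractile genes in smooth muscle, averaged 28.8 ± 5.48 FPKM in RAS and 20.4 ± 4.79 FPKM in control (log2 0.48; limma adjusted p = 0.483), with overlapping groups. Myocd, the smooth muscle coactivator of SRF, lay at 0.0526 to 0.303 FPKM in RAS and 0.208 to 0.303 FPKM in control, under the minimum for the test.

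Notch genes other than Notch3 went both ways, 9 lower and 5 higher of 14 tested, with a median of -0.06 that turned to 0.02 without RAS 2 and to 0.03 without RAS 3 and control 1. Mfng, which adds sugars to Notch receptors, had 121, 109 and 87.0 FPKM in RAS 1, 2 and 3, against 59.2, 68.1 and 66.0 FPKM in control 1, 2 and 3. All RAS libraries lay above all controls, as for 5.42% of all genes tested (log2 0.69 ± 0.16 SE; limma adjusted p = 0.274). Dll4, a Notch ligand of endothelial cells, averaged 7.46 ± 2.13 FPKM in RAS and 12.0 ± 1.98 FPKM in control (log2 -0.64). Dll1, a ligand, and Notch1, a receptor, had log2 differences of 0.23 and 0.34, and none of the list passed the adjusted threshold.

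Further pericyte and mural genes showed no common direction: 8 were lower and 10 higher of 18, with a median of 0.02 that turned to -0.02 without RAS 3 and -0.05 without RAS 3 and control 1. Steap4, a metal reductase also found in fat cells, had 125, 148 and 103 FPKM in RAS 1, 2 and 3, against 263, 185 and 204 FPKM in control 1, 2 and 3 (log2 -0.78 ± 0.20 SE; limma adjusted p = 0.310). Its groups did not overlap. Gja4, a connexin of vessel walls, had overlapping groups (log2 0.30; limma adjusted p = 0.493). Angpt1, the pericyte ligand of the endothelial receptor Tie2, had a log2 difference of 0.38, and Ndufa4l2 one of -0.31. No gene of this list passed the adjusted threshold.

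**Figure D4:**
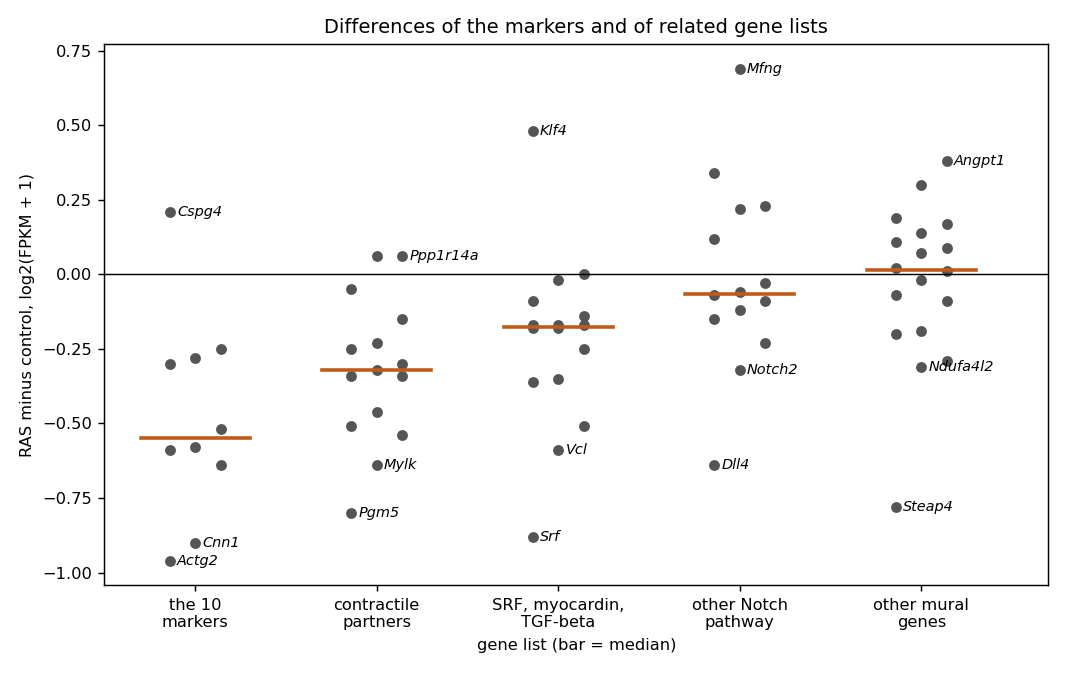
Log2(FPKM + 1) difference, RAS minus control (y axis), of each tested gene (points) in the 10 markers and 4 related lists (x axis); orange bars are list medians, from -0.55 for the markers to 0.02 for the other mural genes. Srf (-0.88) and Klf4 (0.48) are the extremes of their list.

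Markers of other cells that adipose tissue samples can hold also differed between libraries. Mesothelium is the cell sheet over fat depots inside the body cavity. Its 8 markers summed to 119, 183 and 189 FPKM in RAS 1, 2 and 3, against 35.7, 226 and 292 FPKM in control 1, 2 and 3. Upk3b, its most abundant marker, had 45.3, 74.9 and 67.9 FPKM in RAS 1, 2 and 3, against 11.7, 88.7 and 116 FPKM in control 1, 2 and 3. Control 1 was lowest and controls 2 and 3 were highest. Actg2 and Cnn1 were likewise high in controls 2 and 3 and low in control 1. Among the RAS libraries they were low in RAS 1, which had the lowest mesothelial sum there, and high in RAS 2. They were also low in RAS 3, where mesothelial markers were not. Of the 8, 3 were lower and 5 higher in RAS (median 0.16), among them Msln (log2 0.45), Gpm6a (0.54), Lrrn4 (0.28), Wt1 (-0.41) and Upk1b (0.04), and none was at 0 in any library. That direction rested on control 1: without it all 8 were lower in RAS, with a median of -0.76, and without RAS 3 and control 1 all 8 were lower, with a median of -0.87. Without control 3 the median was 0.63, with 0 lower. The part of mesothelium in the smooth muscle values was not tested.

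Skeletal muscle markers, 12 in all, summed to 23.3, 61.8 and 36.7 FPKM in RAS 1, 2 and 3, against 211, 136 and 70.5 FPKM in control 1, 2 and 3. Most of this was Acta1, skeletal alpha-actin and a paralogue of Acta2 and Actg2, at 21.2, 59.6 and 34.3 FPKM in RAS 1, 2 and 3, against 180, 134 and 66.8 FPKM in control 1, 2 and 3 (log2 -1.71 ± 0.45 SE; limma adjusted p = 0.315). Tnni2 (5.70 FPKM), Tnnc2 (6.0), Mylpf (6.74), Tnnt3 (4.34), Ckm (3.08), Myh2 (2.13) and Atp2a1 (1.59) were highest in control 1, and none exceeded 0.729 FPKM elsewhere. The median of the 4 tested genes was -0.90, all lower, and -0.14 without control 1, with 3 lower. Myh4 and Pvalb were listed at 0 in 3 and 4 libraries. Control 1, with the most skeletal muscle RNA, was among the lowest for Des. The part of skeletal muscle RNA in the desmin values was not tested.

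Basal and myoepithelial cells of glands carry Acta2 and Myh11 too. Of their markers Krt5 and Krt15 were listed at 0 in 5 and 4 of 6 libraries, Krt14 lay at 0 to 0.388 FPKM, and Trp63 was highest in control 1 at 2.04 FPKM. Oxtr, the oxytocin receptor, averaged 13.0 ± 4.82 FPKM in RAS and 46.1 ± 8.98 FPKM in control (log2 -1.79 ± 0.25 SE; limma adjusted p = 0.174), while the basal marker Lgals7 had a log2 difference of 0.08. Krt17, Dsg3, Csn2 and Wap were not analysed here. Epithelial markers split by gene: Krt19, also on the mesothelial list, averaged 19.9 ± 5.06 FPKM in RAS and 27.6 ± 19.9 FPKM in control and was, like Krt8, Krt18 and Krt7, lowest in control 1, whereas Epcam reached at most 0.993 and Cdh1 at most 0.0741 FPKM. Their 4 tested genes had a median of 0.04, 2 lower and 2 higher. This split rested on single libraries: all 4 were lower without control 1 (median -0.76), without RAS 3 (-0.19) and without both (-1.05), and 0 were lower without RAS 1 (0.30), control 2 (0.43) or control 3 (0.49). The part of epithelial or myoepithelial cells in the smooth muscle values was not tested.

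Endothelial markers, the partner cells of mural cells, were 7 lower and 5 higher of 12, with a median of -0.09 that ran from -0.16 without RAS 1 to 0.01 without control 1. Eng, a TGF-beta family coreceptor, averaged 80.1 ± 5.24 FPKM in RAS and 54.1 ± 3.89 FPKM in control (log2 0.56; limma adjusted p = 0.263). Tie1 (log2 -0.32), Egfl7 (0.36) and Vwf (-0.25) were the others with the smallest p. Fibroblast and preadipocyte markers were 10 lower and 2 higher of 12 (median -0.28, but -0.13 without RAS 3 and -0.50 without RAS 2), with Lum, a matrix proteoglycan, at 113 ± 49.3 FPKM in RAS and 178 ± 17.8 FPKM in control; Dpt (log2 -0.51), Thy1 (-0.37) and Fap (-0.31) followed. Their sums ran from 1708 to 2692 FPKM in RAS and 2166 to 2769 FPKM in control. No gene of these lists passed the adjusted threshold.

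Schwann cells and glia, which can carry Cspg4, had Mbp at 11.2 ± 1.23 FPKM in RAS and 9.19 ± 0.336 FPKM in control, S100b with a log2 difference of -0.59 and Ngfr with one of -0.94. Macrophage markers were 3 lower and 4 higher of 7 (median 0.13, but -0.03 without control 1 and -0.01 without control 3), with Emr1 (0.13), Mrc1 (-0.25), Cd14 (0.17) and Lyz2 (0.18). Fat cell markers were 3 lower and 5 higher of 8 (median 0.13, but -0.03 after quantile normalization and 0.03 without control 3), and their sum, mostly Fabp4 (log2 0.71), ran from 39279 to 56014 FPKM in RAS and 28683 to 37074 FPKM in control. Cidec stood at a log2 difference of 0.41, Adipoq at 0.22 and Lep at -0.63. FPKM is a relative measure, and the part of this sum in the lower marker means was not tested.

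Brown fat markers set RAS 3 apart, with a sum of 158, 222 and 990 FPKM in RAS 1, 2 and 3, against 336, 128 and 63.6 FPKM in control 1, 2 and 3. Ucp1, the uncoupling protein of brown fat, was at 4.90, 4.48 and 163 FPKM in RAS 1, 2 and 3, against 33.8, 13.9 and 0.0343 FPKM in control 1, 2 and 3. Elovl3 reached 13.8 FPKM in RAS 3 and at most 0.617 FPKM in the other 5 libraries. Cidea ran from 46.8 to 218 FPKM in RAS and 1.38 to 42.4 FPKM in control. Cox7a1 (log2 difference 1.05) had 174 FPKM in RAS 3, against 33.0 and 42.7 FPKM in RAS 1 and 2. Kcnk3 (0.49) was highest in control 1, at 21.9 FPKM against 21.5 FPKM in RAS 3. Of 6 tested genes of the list 0 were lower and 6 higher (median 1.08). Without RAS 3 the median was 0.38 with 2 lower, and without control 3 it was 0.46 with 1 lower. RAS 3, with the highest sum here, was the lowest library for 6 of the 10 markers, and the part of brown fat RNA in that was not tested.

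**Figure D5:**
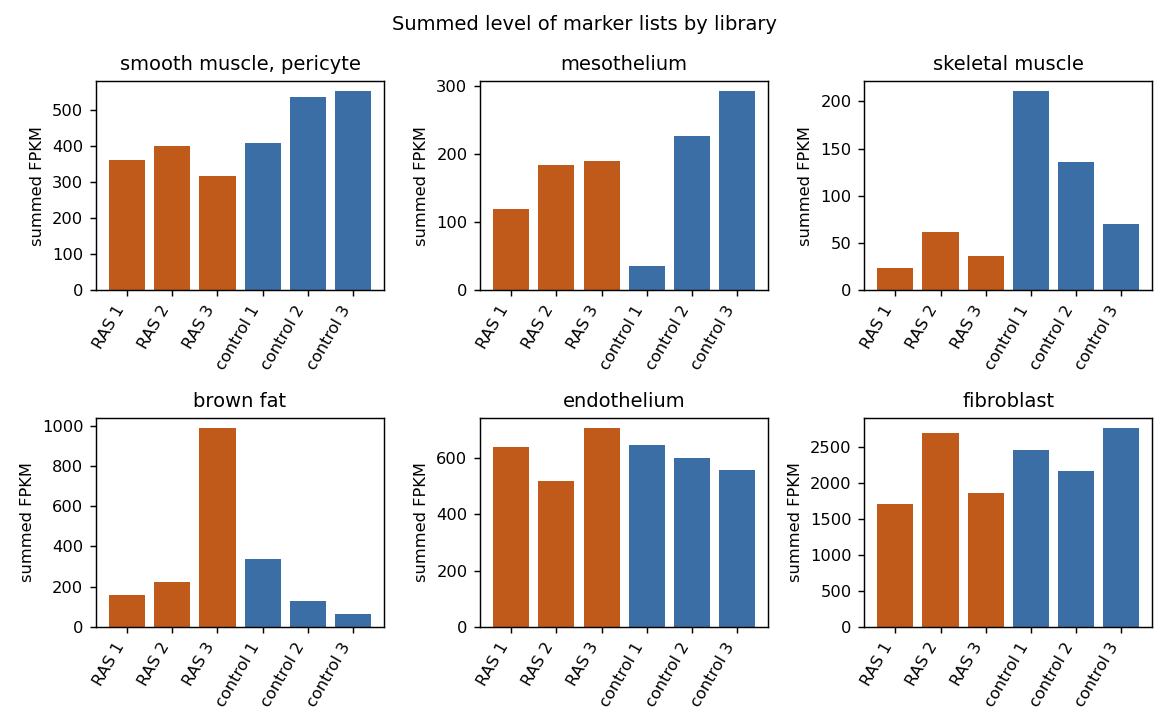
Summed FPKM (y axis, linear from 0) of 6 marker lists in each library (x axis), RAS in orange and control in blue. Control 1 has the lowest mesothelial sum (35.7) and the highest skeletal muscle sum (211), and RAS 3 the highest brown fat sum (990).

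Outside the list, the genes whose centred log2 values over the 6 libraries lay closest to the mean of the 10 markers were Ddr2, a collagen receptor kinase (root mean square difference 0.0568), LOC100862011 (0.0995), Syne1, which links the nucleus to actin (0.121), the matrix protein Tnxb (0.123), the calcium channel Cacna1a (0.126) and Ptgfrn (0.129). Ddr2 had 19.7, 26.0 and 14.4 FPKM in RAS 1, 2 and 3, against 20.7, 29.2 and 29.6 FPKM in control 1, 2 and 3. It followed the order of Actg2, with control 3 highest and RAS 3 lowest, over a narrower range. Among all genes tested some will lie close to any pattern over 6 libraries.

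With RAS 3 left out the median difference of the 10 markers was -0.33, without control 1 it was -0.59, and without both it was -0.52, with 8, 9 and 8 markers lower. Without both, the 7 contractile and filament genes ran from Cnn1 at -1.38, Actg2 at -1.30, Des at -0.91 and Acta2 at -0.61 to Tagln at -0.55, Myh11 at -0.49 and Smtn at -0.36. Rgs5 was at -0.11, Notch3 at 0.21 and Cspg4 at 0.79. Control 1, left out here, was low for the first 7 genes and high for the other 3, so its removal moves the 2 sets apart. RAS 3, also left out, was the lowest library for the mean of the other 3, so its removal raises them too. Without RAS 3 alone, Rgs5, Notch3 and Cspg4 were at -0.31, 0.07 and 0.50. Without control 1 alone they were at -0.44, -0.12 and 0.50. No marker passed the adjusted threshold there (limma adjusted p 0.141 for Des, 0.196 for Acta2 and 0.205 for Cspg4).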

How the data were processed

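The authors deposited FPKM per gene and sample, and these values were used unchanged. The submitters' processing notes list TopHat2 (2.0.9) and Cufflinks (2.1.1); no genome build, annotation or strand setting is given in the sources used here. Their table also holds a count signal that the authors scaled before they deposited it: 99.2 to 99.31% of its low values were whole multiples of 1 step per sample, within 0.02 of a read. Since this did not hold for all values, no count model was run, although 2 had been planned, and estimated reads are given for depth alone. Deposited starts were 1 below the RefSeq GRCm38.p6 start for 8369 of 18819 genes matched by NCBI gene number and equal to it for 355, so 1 was added; 99.9% of loci overlapped their RefSeq gene.

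Columns carrying the group name of the RAS mice in the treatment protocol were taken as RAS, and the other numbered set as control by elimination. Another 4 columns, which hold values per group, were left out. Those genes whose FPKM averaged 1 or more were tested with limma (lmFit, eBayes with trend, two-sided) on log2(FPKM + 1), a scale that understates changes of low genes. The script was tested on simulated data. Named genes are the 10 markers, the up to 4 genes of each other list with the smallest p, genes set apart in 1 library by over 3 times, Acta1 and the 6 nearest genes; Trp63, Krt5, Krt14, Krt15, Epcam, Cdh1, Myocd, Myh4 and Pvalb were added after their values were seen, as low or absent genes. A gene that the rule names is not reported here. Adgre1 is listed under its older symbol Emr1. The markers, lists and tests were chosen with earlier results of these data known. Analyses used R 4.3.3, limma 3.58.1, Python 3.11.15, pandas 2.3.3, numpy 2.4.6 and matplotlib 3.10.9.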

Additional observations from a re-analysis of the deposited data

How the results depend on the processing

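Under 16 alternatives 0 of the 10 markers passed the adjusted threshold in limma. The count of markers with a lower mean stayed between 8 and 10 and their median difference between -0.60 and -0.33 (lowest without RAS 2, highest without RAS 3). The direction of 8 markers was the same in every alternative in which they were tested. A robust variance model, the replicate block and another minimum FPKM leave each log2 difference as it was. Those alternatives could therefore not turn a direction. Notch3 turned to 0.06 with sample weights, 0.07 without RAS 3 and 0.21 without RAS 3 and control 1; Cspg4 turned to -0.04 without control 3. The cause was not tested. Leaving out 1 library gave -0.46 to 0.07 for Notch3 and -0.04 to 0.50 for Cspg4. Of all genes, 0 passed with all libraries, though 1294 had an unadjusted p under 0.05; leaving out 1 library gave 0 to 2 (1 without RAS 1, 1 without RAS 2, 2 without control 1), and leaving out RAS 3 and control 1 together gave 3. With a minimum of 5 FPKM, Cnn1 was not tested. The planned edgeR and DESeq2 fits were not run.

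The replicate block, with the number as a covariate, gave 0 genes past the threshold. Each number occurs once in each group, so the block cannot change a log2 difference, and the median of -0.55 was fixed in advance. What it changes is the error: the SE of each marker was smaller, from 0.17 against 0.18 for Acta2 to 0.13 against 0.34 for Rgs5. Genes with an unadjusted limma p under 0.05 rose from 1294 to 1663, while the smallest adjusted p of all genes went from 0.138 to 0.257. Deviations from the group means correlated at 0.178, 0.096 and 0.219 between same-numbered samples, not over 0.1 in every pair, so the numbers were not taken to pair the samples; each sample correlated best with its own number, which is a hint from the data and not the design. Depth limits Cnn1 and Actg2 most, at 48 and 61 reads in their lowest libraries.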
